A study of Homo sapiens with 6 samples.

Results

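The machinery of autophagy and mitophagy was followed through 41 genes, from the kinase complex that starts an autophagosome to the receptors that bring mitochondria into it. They were picked by symbol, and all 41 were found among the 28395 gene IDs of the count files and passed the filter on low counts. The libraries came from the colorectal cancer line HCT116, an established human line, and polyadenylated RNA was read in pairs. In 3 libraries the cells had been given 0.1% DMSO, the vehicle, and in 3 they had been given 50 nM TR-107, a small-molecule agonist of the mitochondrial protease ClpP, in both cases for 24 h. Both groups shared the line, the medium and the time, and no other agent or genetic change is named in the labels.

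Autophagy wraps cytoplasm in a double membrane, the autophagosome, and hands it to the lysosome for breakdown. The ULK kinase complex starts the process, a lipid kinase complex marks the membrane with phosphatidylinositol 3-phosphate, lipid carriers enlarge it, and a pair of ubiquitin-like conjugation reactions attaches ATG8 proteins (the LC3 and GABARAP families) to its lipid. Cargo receptors bind ATG8 on one side and ubiquitinated cargo on the other, and mitophagy is the form that removes mitochondria, through PINK1 and ubiquitin or through receptors anchored in the outer mitochondrial membrane. Transcript levels do not measure the flow of material to the lysosome, which depends on proteins, their lipid attachment and the lysosome itself.

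Total gene counts were 17264039 to 23708135 per library. Levels are CPM (counts scaled to the effective library size, with TMM factors), and each fold change sets TR-107 against DMSO by edgeR's quasi-likelihood test, with p-values adjusted over all 13767 genes tested and called at 0.05. The submitters call the libraries biological replicates, but no label says whether they came from separate cultures, and the p-values may therefore reflect technical spread alone. In bulk RNA, fewer cells that express a gene and less of its RNA per cell cannot be told apart. Of 8 colorectal epithelial markers, EPCAM, KRT8, KRT18, KRT19 and CDH1 were at 85.5 CPM or more in every library, whereas CDX1 was at 0 in all and VIL1 and LGALS4 stayed at or below 0.207 CPM. The 8 summed to 5135 to 5178 CPM in DMSO and 5639 to 5774 CPM in TR-107. CDH1 (log2 fold change 0.79), KRT18 (0.27) and KRT19 (0.25) were called higher, and EPCAM and KRT8 were not called. Of 8 markers of other cell types, PTPRC, CD3E, COL3A1 and DCN were at 0 in all 6 libraries and PECAM1 and VWF at or below 0.384 CPM. Their summed level was 18.8 to 21.5 CPM in DMSO and 26.6 to 31.5 CPM in TR-107, nearly all of it from COL1A1 and from CD68, which encodes a lysosomal membrane protein and rose from 5.57 ± 1.05 to 11.8 ± 2.06 CPM (SD, n = 3). Mitochondrially encoded genes took 3.56% to 3.92% of counts in DMSO and 4.62% to 4.99% in TR-107. The part of these shifts in the results below was not tested, except that with the mitochondrially encoded genes left out before scaling the same numbers of the 41 genes were called.

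After 24 h in TR-107, the cargo receptors, the ATG8 genes MAP1LC3B and GABARAPL1, most of the ULK complex and BNIP3L stood higher than in DMSO, while most genes of the lipid kinase complex and of the conjugation reactions did not pass the test. Of the 41 genes, 24 rose and 3 fell, and 14 did not pass the test. Over all 13767 genes tested, 29.2% were called higher and 28.6% lower, against 58.5% and 7.32% of the 41, and in either direction 57.8% against 65.9%. The median log2 fold change was 0.36 for the 41 genes and 0.01 for all genes. At least 2-fold increases were called for 9 of them (6.55% of all genes), namely MAP1LC3B, OPTN, GABARAPL1, NBR1, SQSTM1, CALCOCO2, RB1CC1, WIPI1 and BNIP3L, and at least 2-fold decreases for 0 (3.71% of all genes). The 3 TR-107 libraries lay above all DMSO libraries for 26 of the 41 genes and below them for 4, where the shares over all genes were 31.5% and 30.9%. The spans of 16 of the 41 genes overlap another counted gene, and reads of such pairs may be split between them. No test between the steps was made, and the counts and medians by step describe these libraries. Each count by step is to be read beside the 29.2% higher and 28.6% lower over all genes.

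**Figure D1:**
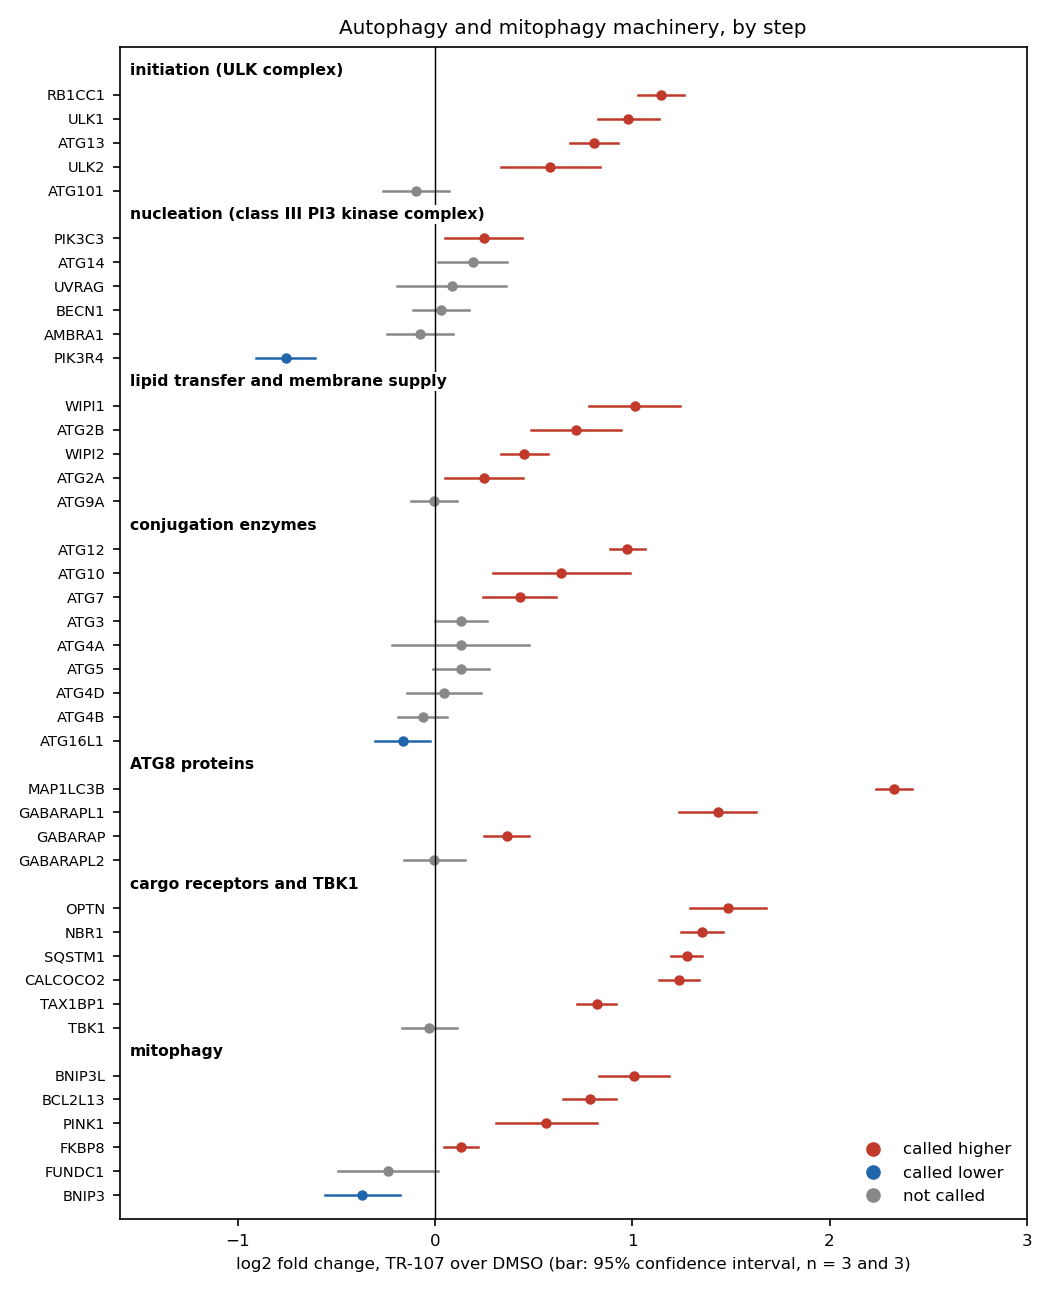
Log2 fold change of each of the 41 genes, TR-107 over DMSO, with its 95% confidence interval, grouped by step (red, called higher; blue, called lower; grey, not called; 3 libraries a group). MAP1LC3B lies farthest to the right at 2.33 and PIK3R4 farthest to the left at -0.76.

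The ULK complex, which starts autophagosome formation, had 4 of 5 genes higher and 0 lower, at a median log2 change of 0.81. RB1CC1 encodes FIP200, the large scaffold of the complex. It stood at 52.6, 49.6 and 52.2 CPM in DMSO (replicates 1, 2 and 3) and at 116, 112 and 113 CPM in TR-107, so every treated library was more than double any control. Its log2 fold change was 1.14 ± 0.06 (SE; edgeR adjusted p = 1.09e-20). ULK1, the kinase that receives signals from mTORC1 and AMPK, stood at 28.1, 28.8 and 30.3 CPM in DMSO and at 57.0, 59.4 and 55.7 CPM in TR-107. The groups were far apart, by 0.98 ± 0.08 on the log2 scale (SE; edgeR adjusted p = 1.33e-14). Its paralog ULK2 rose less, from 12.1 ± 1.11 to 18.2 ± 0.736 CPM (SD, n = 3; log2 fold change 0.58). ATG13, which joins the kinase to the scaffold, rose from 52.7 ± 1.65 to 92.2 ± 2.51 CPM (SD, n = 3; log2 fold change 0.81). ATG101, the small partner that steadies ATG13, gave 43.7 ± 2.98 and 40.8 ± 4.69 CPM (SD, n = 3) with overlapping groups, and its log2 difference had a 95% confidence interval of -0.27 to 0.07.

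The class III phosphatidylinositol 3-kinase complex had 1 of 6 genes higher and 1 lower (16.7% each), at a median log2 change of 0.06. Over all genes tested 29.2% were called higher and 28.6% lower. PIK3R4 encodes VPS15, the regulatory subunit that holds the lipid kinase. It stood at 58.5, 62.3 and 65.3 CPM in DMSO and at 37.6, 33.5 and 38.9 CPM in TR-107, with no overlap. This was the lowest fold change of the 41 genes, at -0.76 ± 0.07 on the log2 scale (SE; edgeR adjusted p = 1.05e-11). The catalytic subunit PIK3C3 (VPS34) stood at 25.5, 26.4 and 21.7 CPM in DMSO and at 30.3, 27.3 and 29.4 CPM in TR-107, and passed narrowly (log2 fold change 0.25; edgeR adjusted p = 0.0279). The log2 value fell short of a call on leaving out DMSO replicate 3 (0.15), on leaving out TR-107 replicate 1 (0.22) or 3 (0.24), and on scaling by library size only (0.18). BECN1, the core subunit Beclin 1, gave 49.9 ± 1.79 and 50.9 ± 1.79 CPM (SD, n = 3), with an interval of -0.11 to 0.17 for the log2 difference. The interval was 0.01 to 0.37 for ATG14, which sends the complex to sites of autophagosome formation (edgeR adjusted p = 0.0623, although its 3 TR-107 libraries were above all DMSO libraries). It was -0.19 to 0.36 for UVRAG, which takes the place of ATG14 in the endosomal form of the complex, and -0.24 to 0.09 for AMBRA1, a Beclin 1 regulator.

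Among genes that enlarge the membrane, 4 of 5 rose and 0 fell, at a median log2 change of 0.45. WIPI1, which binds phosphatidylinositol 3-phosphate on the growing membrane, stood at 12.5, 11.7 and 12.8 CPM in DMSO and at 22.4, 25.6 and 26.4 CPM in TR-107. The treated libraries were all well above the controls (log2 fold change 1.01 ± 0.11, SE; edgeR adjusted p = 3.63e-10). Its span overlaps ARSG (log2 fold change 0.65) and PRKAR1A (0.17), and the part of their reads was not tested. WIPI2, the relative that recruits ATG16L1, rose from 73.2 ± 4.10 to 100.1 ± 5.65 CPM (SD, n = 3; log2 fold change 0.45). Of the lipid transfer proteins that bridge the membrane to the endoplasmic reticulum, ATG2B rose from 14.2 ± 1.45 to 23.3 ± 0.724 CPM (SD, n = 3). ATG2A rose less, from 27.6 ± 3.25 to 32.8 ± 3.96 CPM (log2 fold change 0.25; edgeR adjusted p = 0.0287). It was not called on leaving out DMSO replicate 3 (0.14) or TR-107 replicate 1 (0.15), on scaling by library size only (0.18) or under DESeq2 (0.24). ATG9A, the scramblase carried by seed vesicles, gave 81.3 ± 1.40 and 81.0 ± 4.06 CPM (SD, n = 3), with an interval of -0.12 to 0.11.

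Of 9 conjugation enzymes and substrates, 3 rose (33.3%), 1 fell (11.1%) and 5 did not pass, at a median log2 change of 0.13. Over all genes tested 29.2% were called higher and 28.6% lower. In either direction the share was 57.8% over all genes and 44.4% here. ATG12, the ubiquitin-like protein joined to ATG5, stood at 171, 157 and 172 CPM in DMSO and at 327, 327 and 327 CPM in TR-107. Its rise was 1.96-fold, or 0.97 ± 0.04 on the log2 scale (SE; edgeR adjusted p = 1.13e-22). ATG10, which carries ATG12 to ATG5, rose from 5.46, 6.29 and 6.49 CPM in DMSO to 9.76, 9.81 and 8.95 CPM in TR-107 (log2 fold change 0.64). ATG7, the activating enzyme of both reactions, rose from 24.6 ± 1.36 to 33.0 ± 1.94 CPM (SD, n = 3; log2 fold change 0.43). The span of ATG7 overlaps VGLL4, which rose by 0.87 on the log2 scale, and the part of its reads was not tested. ATG16L1, which takes the ATG12 and ATG5 pair to the membrane, fell by 0.16 on the log2 scale, from 55.5 ± 2.27 to 49.5 ± 0.656 CPM (SD, n = 3; edgeR adjusted p = 0.0397). That small call was lost in 5 of the 6 fits that left out a library (log2 fold changes of -0.17 to -0.15 there), all except the one without DMSO replicate 2.

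The other 5 conjugation genes did not pass the test. ATG5, the acceptor of ATG12, gave 47.2 ± 1.41 and 51.6 ± 0.700 CPM (SD, n = 3), with the TR-107 libraries all higher but an edgeR adjusted p of 0.117. ATG3, which passes ATG8 to the lipid, gave 60.9 ± 2.66 and 66.6 ± 3.59 CPM (SD, n = 3; edgeR adjusted p = 0.0829). ATG4 proteases trim ATG8 before conjugation and release it afterwards. The intervals for the log2 difference were -0.22 to 0.48 for ATG4A, -0.19 to 0.06 for ATG4B and -0.14 to 0.23 for ATG4D.

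ATG8 genes held the highest fold change of the 41 and 3 of 4 rose, while the groups overlapped for GABARAPL2. To let the members of this family be compared, the 250 bases before the RefSeq start of each gene, and before the start of the receptor SQSTM1, are shown with motif matches in capitals (RefSeq, GRCh38.p14). Coordinates are chr16:87392086-87392335 on the plus strand for MAP1LC3B, chr12:10212627-10212876 on the plus strand for GABARAPL1, chr17:7242450-7242699 on the minus strand for GABARAP, chr16:75566129-75566378 on the plus strand for GABARAPL2 and chr5:179820655-179820904 on the plus strand for SQSTM1. For SQSTM1, 1 of 3 RefSeq starts was taken, the one with the most GENCODE coding transcripts within 100 bases.
MAP1LC3B: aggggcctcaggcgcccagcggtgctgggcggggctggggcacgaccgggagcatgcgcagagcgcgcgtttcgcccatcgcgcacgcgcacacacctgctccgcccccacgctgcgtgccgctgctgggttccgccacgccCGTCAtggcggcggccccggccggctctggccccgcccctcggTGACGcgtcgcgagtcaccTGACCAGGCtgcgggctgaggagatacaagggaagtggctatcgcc
GABARAPL1: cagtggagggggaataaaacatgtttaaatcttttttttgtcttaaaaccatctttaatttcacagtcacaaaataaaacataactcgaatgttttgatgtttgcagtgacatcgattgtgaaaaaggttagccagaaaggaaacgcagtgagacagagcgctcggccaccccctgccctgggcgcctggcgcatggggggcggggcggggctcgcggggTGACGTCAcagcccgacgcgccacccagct
GABARAP: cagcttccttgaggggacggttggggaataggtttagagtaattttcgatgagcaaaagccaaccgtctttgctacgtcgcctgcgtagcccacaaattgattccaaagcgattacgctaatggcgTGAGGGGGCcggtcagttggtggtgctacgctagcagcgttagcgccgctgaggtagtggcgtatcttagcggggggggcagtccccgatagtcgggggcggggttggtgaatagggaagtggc
GABARAPL2: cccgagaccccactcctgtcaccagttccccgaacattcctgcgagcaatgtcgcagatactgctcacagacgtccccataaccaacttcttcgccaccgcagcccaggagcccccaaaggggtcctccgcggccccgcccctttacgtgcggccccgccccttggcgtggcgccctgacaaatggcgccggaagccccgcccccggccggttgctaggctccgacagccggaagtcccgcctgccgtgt
SQSTM1: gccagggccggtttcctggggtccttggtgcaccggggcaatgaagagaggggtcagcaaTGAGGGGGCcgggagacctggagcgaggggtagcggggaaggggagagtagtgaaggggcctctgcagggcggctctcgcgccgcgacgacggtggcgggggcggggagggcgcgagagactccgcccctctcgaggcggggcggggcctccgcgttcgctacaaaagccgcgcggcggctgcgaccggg

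The motifs, 6 in all, were searched on both strands. The full cAMP response element TGACGTCA, bound by the ATF and CREB families, lay at bases -30 to -23 of GABARAPL1 and in 1.65% of 35116 RefSeq windows of the same length. Its part TGACG, which overlaps the full element at both of its places in GABARAPL1, matched at -108 to -104 and -65 to -61 of MAP1LC3B, and 21.2% of windows held it. The antioxidant element, known as a site of NRF2, was searched as TGACNNNGC (10.9% of windows) and TGAGNNNGC (14.8%). The first form matched at -46 to -38 of MAP1LC3B. The second matched at -124 to -116 of GABARAP and at -190 to -182 of SQSTM1. The composite element of C/EBP and ATF factors, TGATGNAA (3.14%), and the E-box CACGTG (6.34%), which is the core of TFEB sites, matched in 0 of the 5 windows, and GABARAPL2 held 0 of the 6 motifs. TGACG lay in 13 of the 35 windows found for the followed genes. ULK1, ATG2B, ATG7, ATG10, MAP1LC3B, GABARAPL1, CALCOCO2 and TAX1BP1 rose, PIK3R4 and ATG16L1 fell, and BECN1, ATG9A and ATG3 did not pass. TGAGNNNGC lay in 6 (WIPI2, GABARAP, SQSTM1 and CALCOCO2 rose, ATG16L1 fell, ATG14 did not pass). CACGTG lay in 4 (BNIP3 fell, ATG14, ATG3 and TBK1 did not pass). TGACNNNGC lay in 3 (MAP1LC3B and CALCOCO2 rose, ATG101 did not pass). Any link of motif to change was not tested. These are matches of letters, and no binding was measured.

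MAP1LC3B encodes LC3B, the ATG8 protein most used to mark autophagosomes. It stood at 73.8, 73.5 and 79.0 CPM in DMSO and at 379, 379 and 377 CPM in TR-107, with each group nearly uniform. The rise was 5.02-fold, or 2.33 ± 0.05 on the log2 scale (SE; edgeR adjusted p = 1.99e-35). Reads of its near-identical copy MAP1LC3B2, which went from 1.87 ± 0.436 to 8.31 ± 0.494 CPM (SD, n = 3), may be split between both genes. MAP1LC3B2 was named after its values were seen. GABARAPL1, a stress-responsive relative of GABARAP, stood at 14.6, 19.0 and 16.8 CPM in DMSO and at 44.4, 42.1 and 49.9 CPM in TR-107. Its lowest treated library was above double its highest control (log2 fold change 1.43 ± 0.10, SE; edgeR adjusted p = 1.55e-16).

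GABARAP itself rose by less, from 74.7 ± 0.864 to 95.9 ± 5.26 CPM (SD, n = 3; log2 fold change 0.36; edgeR adjusted p = 7.70e-07). Its span overlaps PHF23, which fell by 0.49 on the log2 scale. GABARAPL2 (GATE-16) stood at 41.6, 41.8 and 41.5 CPM in DMSO and at 43.0, 39.9 and 41.6 CPM in TR-107, with an interval of -0.16 to 0.15 for the log2 difference. Summed over the 4 genes, ATG8 transcripts went from 209 ± 4.23 to 562 ± 8.16 CPM (SD, n = 3).

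Per kilobase of exon, which allows levels of different genes to be set side by side, the ATG8 pool changed in make-up. MAP1LC3B held 26.5%, 25.7% and 27.5% of the summed counts per kilobase in DMSO and 59.1%, 59.8% and 57.6% in TR-107. GABARAP went from 35.0 ± 0.350% to 19.8 ± 0.812% and GABARAPL2 from 32.5 ± 0.530% to 14.3 ± 0.486% (SD, n = 3). GABARAPL1, although higher in level, kept a small share, 5.97 ± 0.710% and 7.12 ± 0.508% (SD, n = 3), with overlapping groups. The exact two-sided permutation p was 0.1 for the first 3 genes, the smallest that 3 libraries against 3 allow, and 0.2 for GABARAPL1. In DMSO the order was GABARAP, GABARAPL2, MAP1LC3B and GABARAPL1, and in TR-107 it was MAP1LC3B, GABARAP, GABARAPL2 and GABARAPL1, and no neighbours in either order overlapped. These shares rest on union exon lengths from GENCODE release 29, which need not match the transcripts that these cells make.

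**Figure D2:**
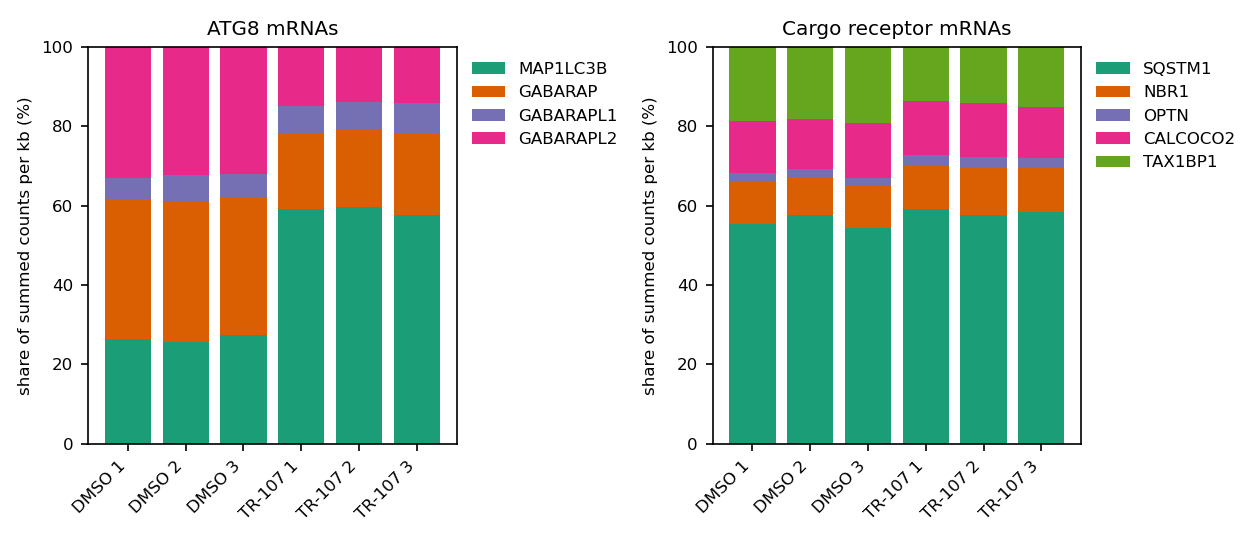
Share of each gene in the summed counts per kilobase of exon, in percent, for the 4 ATG8 genes (left) and the 5 cargo receptors (right), with 1 bar for each library. The MAP1LC3B share is 25.7% to 27.5% in the DMSO bars and 57.6% to 59.8% in the TR-107 bars, while SQSTM1 holds 54.3% to 59.2% of the receptor pool.

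All 5 cargo receptors rose, and TBK1, the kinase that phosphorylates them, did not pass. The median log2 fold change of the 6 genes was 1.25. SQSTM1 encodes p62, which gathers ubiquitinated proteins and is itself degraded with them. It stood at 296, 310.0 and 292 CPM in DMSO and at 727, 719 and 726 CPM in TR-107. That was 2.42-fold higher, with no overlap and a change of 1.27 ± 0.04 on the log2 scale (SE; edgeR adjusted p = 1.01e-28). Its span overlaps MGAT4B, which fell by 0.20 on the log2 scale. NBR1, a receptor with the same domain plan as p62, stood at 81.4, 74.7 and 82.7 CPM in DMSO and at 192, 217 and 200.5 CPM in TR-107. The fold change was close to that of SQSTM1, at 1.35 ± 0.05 on the log2 scale (SE; edgeR adjusted p = 9.81e-25).

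OPTN, optineurin, a receptor for ubiquitinated mitochondria and bacteria, had the lowest share of counts per kilobase of the 5 and the highest fold change. It stood at 14.4, 13.5 and 13.5 CPM in DMSO and at 39.3, 38.0 and 38.3 CPM in TR-107. The log2 fold change was 1.49 ± 0.10 (SE; edgeR adjusted p = 3.52e-17). CALCOCO2, which encodes NDP52, another receptor of PINK1-marked mitochondria, stood at 76.7, 74.0 and 81.3 CPM in DMSO and at 185, 186 and 176 CPM in TR-107. All treated libraries were above 2 times any control, with a log2 fold change of 1.24 ± 0.05 (SE). Its relative TAX1BP1 rose less, from 108 ± 2.79 to 190.4 ± 10.7 CPM (SD, n = 3; log2 fold change 0.82). TBK1 gave 56.2 ± 2.10 and 55.1 ± 2.64 CPM (SD, n = 3), with an interval of -0.17 to 0.11.

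Together the 5 receptors went from 578 ± 2.48 to 1338 ± 14.0 CPM (SD, n = 3), all 3 treated sums lying above the controls. Per kilobase, SQSTM1 held 55.8 ± 1.67% in DMSO and 58.4 ± 0.778% in TR-107, and TAX1BP1 went from 18.7 ± 0.488% to 14.3 ± 0.721% (SD, n = 3; exact two-sided permutation p = 0.1 for both).

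**Figure D3:**
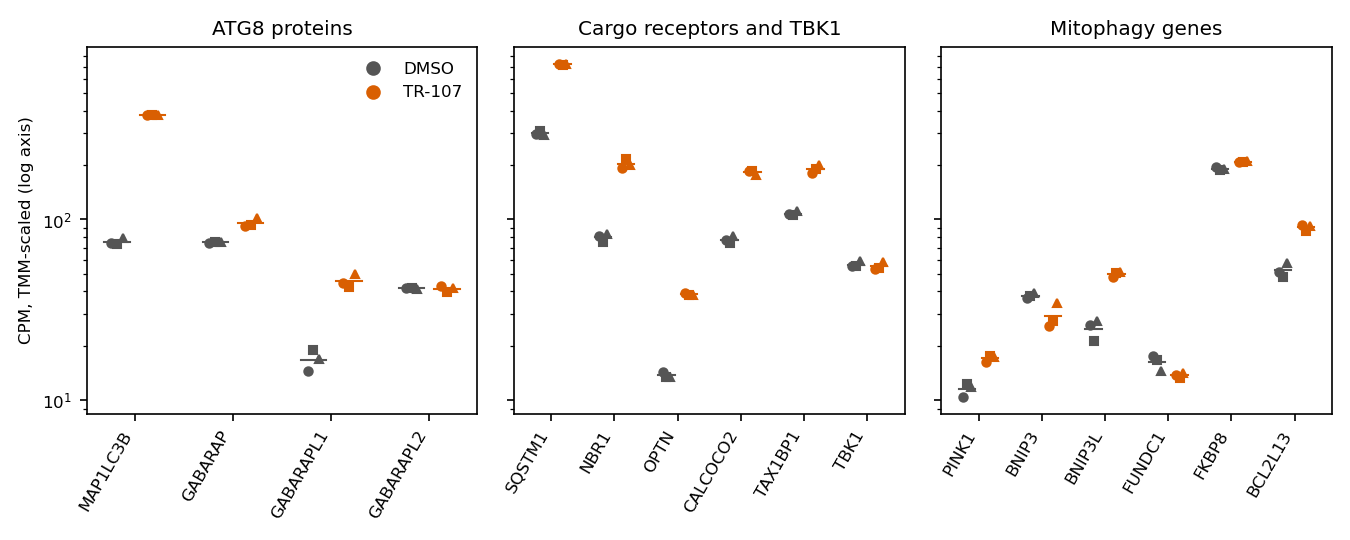
CPM on a log axis in each library for the ATG8 genes, the cargo receptors with TBK1, and the mitophagy genes (grey, DMSO; orange, TR-107; circle, square and triangle for replicates 1, 2 and 3; line, mean). GABARAPL2 and TBK1 show overlapping groups, MAP1LC3B moves from near 75.4 to near 379 CPM, and BNIP3 is the called gene with TR-107 below DMSO.

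Of 6 mitophagy genes, 4 rose, 1 fell and 1 did not pass, and the paired outer-membrane receptors BNIP3 and BNIP3L went in opposite directions. BNIP3L encodes NIX, which removes mitochondria from maturing red cells and is also induced in low oxygen. It stood at 26.0, 21.4 and 27.4 CPM in DMSO and at 48.3, 50.8 and 51.2 CPM in TR-107. All treated libraries were far above the controls (log2 fold change 1.01 ± 0.09, SE; edgeR adjusted p = 3.22e-13). BNIP3, its hypoxia-inducible relative, stood at 36.6, 37.6 and 39.2 CPM in DMSO and at 25.8, 27.3 and 34.5 CPM in TR-107. The treated libraries were all lower, with replicate 3 nearest to the controls (log2 fold change -0.37 ± 0.09, SE; edgeR adjusted p = 0.000782). Leaving out TR-107 replicates 1, 2 and 3 in turn gave -0.29, -0.32 and -0.51 (edgeR adjusted p = 0.0132, 0.00864 and 1.64e-05), and every fit kept the call. The span of BNIP3 overlaps PPP2R2D, which fell by 0.28 on the log2 scale, and the part of its reads was not tested.

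PINK1, the kinase that accumulates on damaged mitochondria and marks ubiquitin there, stood at 10.4, 12.3 and 11.9 CPM in DMSO and at 16.4, 17.5 and 17.4 CPM in TR-107. The groups did not overlap (log2 fold change 0.56 ± 0.13, SE; edgeR adjusted p = 0.00021). Its antisense partner PINK1-AS overlaps it, and the strand setting of the counting is not given in the sources used here. BCL2L13, an outer-membrane receptor related to yeast Atg32 in function, rose from 52.5 ± 4.88 to 90.4 ± 3.89 CPM (SD, n = 3; log2 fold change 0.78). FKBP8, a receptor that binds LC3A, rose from 191 ± 4.36 to 209 ± 1.95 CPM (SD, n = 3), only 1.09-fold. It was not called on leaving out DMSO replicate 2 (log2 fold change 0.11) or on scaling by library size only (0.07). FUNDC1, a receptor of hypoxic mitophagy, gave 16.3 ± 1.59 and 13.7 ± 0.375 CPM (SD, n = 3). Its TR-107 libraries were all lower, but the call was missed (log2 interval -0.49 to 0.01; edgeR adjusted p = 0.0996).

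Ratios between 2 genes of 1 library do not depend on library scaling, and 11 such pairs were compared by exact two-sided permutation tests. In 8 of 11 the groups did not overlap, each with an exact permutation p of 0.1, the smallest that 3 libraries against 3 allow, and adjusted p = 0.138, so none can reach 0.05. For single genes, the TR-107 libraries lay above all DMSO libraries in 31.5% of all genes tested and below them in 30.9%. No such share was computed for other pairs of genes, and these pairs were chosen with earlier results known. The log2 ratio of BNIP3 to BNIP3L was 0.49, 0.81 and 0.52 in DMSO and -0.91, -0.89 and -0.57 in TR-107, lower in every treated library. These ratios are of counts and not per length. The log2 ratio of GABARAPL1 to GABARAPL2 went from -1.32 ± 0.186 to 0.13 ± 0.117 (SD, n = 3), and that of MAP1LC3B to GABARAPL2 from 0.86 ± 0.0625 to 3.19 ± 0.0534. ULK1 over ULK2 (difference in log2 ratio 0.40), WIPI1 over WIPI2 (0.56), CALCOCO2 over TAX1BP1 (0.42) and GABARAPL1 over GABARAP (1.08) were also higher in TR-107, and ATG2A over ATG2B was lower (-0.47). For SQSTM1 over NBR1 the difference was -0.08 (exact p = 0.5), for ATG4A over ATG4B 0.22 (exact p = 0.5) and for ATG4D over ATG4B 0.11 (exact p = 0.2). Groups of all these pairs overlapped with 0.5 added to each count. With 5 added, ATG4D over ATG4B gave an exact permutation p of 0.1.

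**Figure D4:**
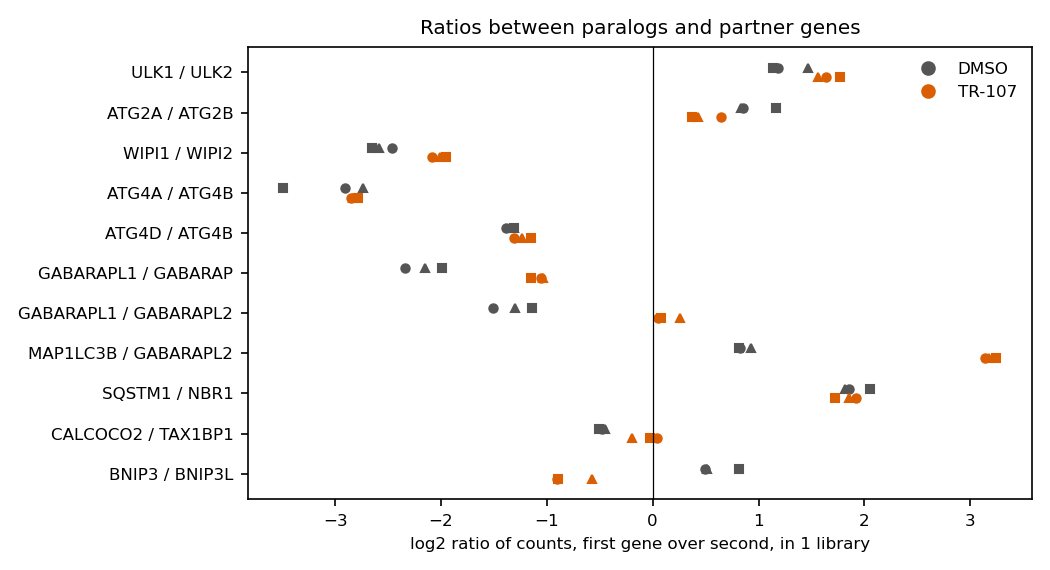
Log2 ratio of the counts of 2 genes within each library, for 11 pairs of paralogs or partners (grey, DMSO; orange, TR-107; circle, square and triangle for replicates 1, 2 and 3). In 8 pairs the groups do not overlap, and the BNIP3 to BNIP3L ratio is 0.49 to 0.81 in DMSO and -0.91 to -0.57 in TR-107. Of all single genes tested, 31.5% lie wholly above and 30.9% wholly below in TR-107.

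Beyond the 41 genes, 54 other autophagy genes were listed and 50 were tested. Among those tested, 25 rose (50.0%) and 8 fell (16.0%), at a median log2 change of 0.24. The shares over all genes tested were 29.2% higher and 28.6% lower. Of 14 tested early genes 11 rose (78.6%) and 1 fell (7.14%). Of the 11, ATG16L2, NRBF2 and TECPR1, named after their values were seen, were not called in several alternatives. Without TR-107 replicate 2 none of them was called, and ATG16L2 went from 0.53 to 0.27 on the log2 scale (edgeR adjusted p = 0.298). WDR45 encodes WIPI4, the partner of ATG2, and stood at 14.8, 15.5 and 13.1 CPM in DMSO and at 47.3, 50.3 and 50.2 CPM in TR-107 (log2 fold change 1.77 ± 0.09, SE; edgeR adjusted p = 2.64e-20). All treated libraries were well above the controls, whereas its relative WDR45B, named after its values were seen, gave 189 ± 3.13 and 185 ± 3.45 CPM (SD, n = 3; interval -0.13 to 0.05; called at -0.10 with library size alone). TP53INP1, a p53 target that binds LC3, rose from 10.8 ± 1.73 to 27.4 ± 2.87 CPM (SD, n = 3). TMEM41B, an endoplasmic reticulum scramblase, rose by 0.63 on the log2 scale, and the protease ATG4C fell by 0.46. MAP1LC3A gave 0, 4 and 5 counts in the DMSO libraries and 1, 0 and 0 in those with TR-107, MAP1LC3C had 1 count in DMSO and 4 in TR-107, and both were below the filter on low counts. With no filter their edgeR adjusted p was 0.328 and 0.51.

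**Figure D5:**
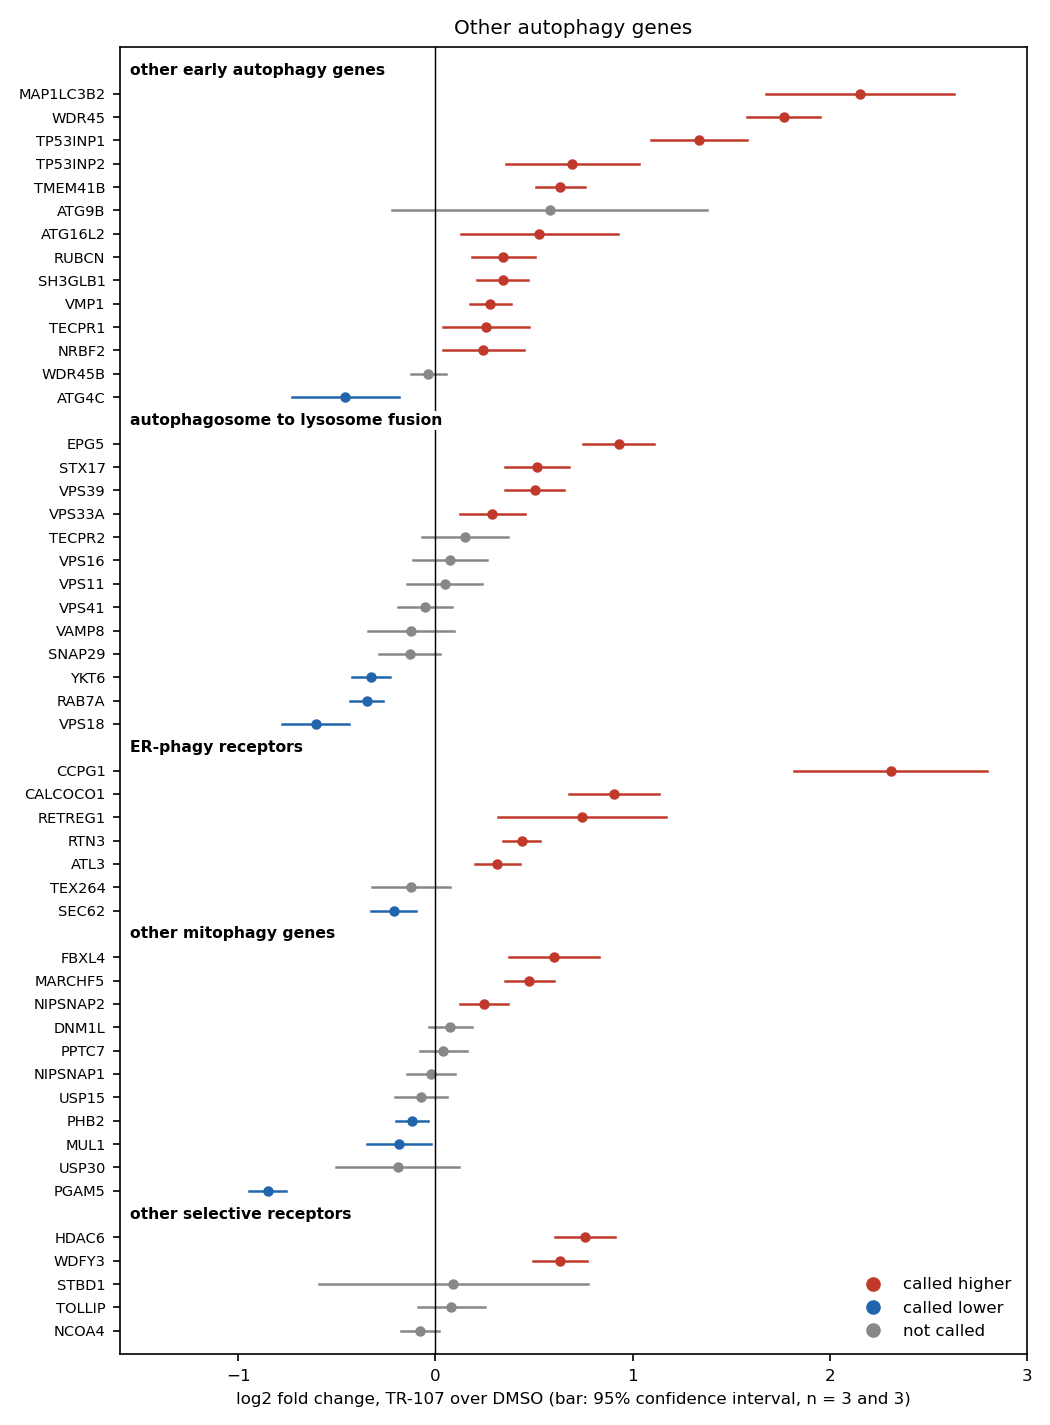
Log2 fold change of 50 other autophagy genes, TR-107 over DMSO, with 95% confidence intervals (red, called higher; blue, called lower; grey, not called; 3 libraries a group). In the early genes 11 points are red, while the fusion genes hold 4 red and 3 blue points.

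Fusion of autophagosome and lysosome had 4 of 13 tested genes higher (30.8%) and 3 lower (23.1%), at a median log2 change of 0.05, shares near the 29.2% and 28.6% of all genes tested. EPG5, a tether (0.93), STX17, the autophagosomal SNARE (0.52), and VPS39, a HOPS subunit (0.50), had the smallest p among those that rose on the log2 scale. RAB7A, the late endosomal GTPase, fell from 286 ± 3.96 to 225 ± 4.29 CPM (SD, n = 3), and the HOPS subunit VPS18 (-0.61) and the SNARE YKT6 (-0.33) fell with it. PLEKHM1 had 1 count in all 6 libraries together. Of 7 receptors for the endoplasmic reticulum, 5 rose (71.4%) and 1 fell (14.3%). CCPG1, a receptor induced in endoplasmic reticulum stress, stood at 2.25, 2.23 and 1.08 CPM in DMSO and at 9.11, 8.16 and 10.0 CPM in TR-107 (log2 fold change 2.31 ± 0.24, SE), although its span overlaps PIGB and a readthrough gene. RTN3 (0.44) and CALCOCO1 (0.91) rose and SEC62 (-0.21) fell on the log2 scale.

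Of 11 other tested mitophagy genes, 3 rose and 3 fell (27.3% each), at a median log2 change of -0.02. Both shares lay near the 29.2% higher and 28.6% lower of all genes tested. MARCHF5 (0.48), a ubiquitin ligase of the outer membrane, FBXL4 (0.60), which limits BNIP3 and NIX protein, and NIPSNAP2 (0.25) rose. PGAM5, a mitochondrial phosphatase, fell from 238 ± 5.14 to 132 ± 5.36 CPM (SD, n = 3), and PHB2 (-0.12) and MUL1 (-0.18) fell by less. PHB2 was not called without TR-107 replicate 1 (-0.09) or 2 (-0.11). MUL1 was not called on leaving out replicate 1 (-0.17) or 2 (-0.16) of DMSO or 2 (-0.13) or 3 (-0.19) of TR-107, with upper-quartile factors (-0.18) or under DESeq2 (-0.19). Of 5 other selective receptors, HDAC6 (0.76), which moves ubiquitinated aggregates, and WDFY3 (0.63), the adaptor ALFY, rose and 0 fell. The share that rose was 40.0%, against 29.2% of all genes tested.

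Several of these genes have been reported elsewhere as targets of a stress-responsive factor, and 3 lists of such genes were read from the same fit. Of 12 genes reported to need ATF4 or CHOP, all of them among the 41, 7 rose (58.3%) and 1 fell (8.33%). Their median log2 change was 0.40. The shares lay near the 58.5% and 7.32% of all 41 genes, whose median was 0.36. Of the 12, MAP1LC3B, SQSTM1, NBR1, ATG12, ATG10, ATG7 and GABARAP rose and ATG16L1 fell, while BECN1, ATG3, ATG5 and GABARAPL2 did not pass. Of 7 genes reported to follow TFEB, MAP1LC3B, SQSTM1 and WIPI1 rose (42.9%) and VPS18 fell (14.3%), while UVRAG, ATG9B and VPS11 did not pass. Over all genes tested, 29.2% were called higher and 28.6% lower. Of the 2 hypoxia-inducible receptors, BNIP3L rose and BNIP3 fell. The first 2 lists share MAP1LC3B and SQSTM1, so their counts are not independent. All 3 lists were chosen with earlier results of these data known, and whether any of these factors acted here was not tested.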

How the data were processed

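The 6 HCT116 libraries were counts of polyadenylated RNA, 3 from cells in DMSO and 3 from cells in TR-107. The deposited values are raw read counts per NCBI gene ID, which the authors made with HISAT2 on hg38 and featureCounts after FastQC and Trimmomatic, per the submitters' processing notes. Neither versions nor annotation, strandedness or treatment of multi-mapping reads is stated in those notes, so reads of overlapping or near-identical genes may be split or lost. Of 28395 gene IDs, 27745 matched a symbol in RefSeq's GRCh38.p14 table.

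Counts were scaled by TMM, filtered with filterByExpr and tested with edgeR's quasi-likelihood test (edgeR 4.0.16, R 4.3.3; robust dispersion, group alone, Benjamini-Hochberg at 0.05 over all genes tested). Standard errors are the log2 fold change divided by the root of F. The groups and replicate numbers came from the titles. Replicate numbers were not treated as pairs, since deviations of same-numbered libraries correlated at -0.0311, -0.0185 and 0.0486. Chi-square per degree of freedom between libraries of a group was 4.00 to 6.21, so each counted as 1 replicate. The ratios added 0.5 to each count (SciPy 1.17.1). The 41 genes, the lists, the motifs and the pairs were chosen with earlier results of these data known. All 41 are named, and of each other list up to 3 called genes per direction with the smallest p and those below the filter, of which 1 is not reported here. Promoter windows of 250 bases were found for 35 of the 41. Alternatives were other scalings and filters, a replicate block, DESeq2 1.42.0, limma-voom (limma 3.58.1), each library left out, and, added after the data were seen, the mitochondrially encoded genes left out. The edgeR, DESeq2 and limma-voom fits were run on simulated counts, and the outcome is not given here. In the simulation far fewer genes changed than the 57.8% called in these data, and every gene had the same dispersion. The exact permutation tests were not part of it.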

Additional observations from a re-analysis of the deposited data

How the results depend on the processing

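Across 15 alternatives, 23 of the 27 called genes among the 41 kept their direction and call in every one, and the exceptions were PIK3C3, ATG2A, ATG16L1 and FKBP8. The number called higher was 21 to 24 and lower 2 to 4, the ends of 21 and 4 coming from library size alone. With the replicate number as a block, 24 were higher and 3 lower, and the block changed no call among the 41, and over all genes it gave 3976 higher and 3942 lower. With library size alone, 0 genes of the lipid kinase complex were called higher and 2 of the mitophagy genes lower. Leaving out 1 library gave 0 to 1 lipid kinase genes higher, 0 to 1 conjugation genes lower and 1 to 2 mitophagy genes lower. Log2 fold changes of uncalled genes near 0 changed sign: with library size alone BECN1 (-0.034) and ATG4D (-0.0194), with upper-quartile factors ATG9A (0.000756) and GABARAPL2 (0.000999), without DMSO replicate 2 BECN1 (-0.00826) and ATG4A (-0.072), without DMSO replicate 1 UVRAG (-0.013), and without TR-107 replicate 2 ATG9A (0.029), ATG4D (-0.026) and GABARAPL2 (0.022). Over the fits without 1 library the ranges were -0.00826 to 0.0609 for BECN1, -0.0407 to 0.0287 for ATG9A, -0.0719 to 0.255 for ATG4A, -0.0259 to 0.0929 for ATG4D, -0.029 to 0.0218 for GABARAPL2 and -0.0128 to 0.236 for UVRAG. The cause was not tested. Leaving out 1 library also gave a call to ATG14 (0.24) and ATG3 (0.17) without TR-107 replicate 1 and to FUNDC1 (-0.33) without DMSO replicate 3. Genes of a few CPM, ATG10 among them, have the widest errors. The ratios kept their sign under a pseudocount of 5 and on leaving out each library, but without DMSO replicate 2 the differences for ATG4A over ATG4B (0.000895) and SQSTM1 over NBR1 (-0.00451) were near 0, and without TR-107 replicate 2 that for SQSTM1 over NBR1 was -0.0213. The groups of both pairs overlap with all libraries in. For ATG4D over ATG4B the exact permutation p was 0.2 in the main setting and 0.1 under a pseudocount of 5. The count of 8 pairs without overlap therefore depends on the pseudocount.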
